A study of Saccharomyces cerevisiae with 24 samples.

Results

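The allantoin and urea genes of Saccharomyces cerevisiae were taken by name from the RNA-seq count files: DAL1, DAL2, DAL3, DAL4, DAL5, DAL7, DCG1, DUR1,2 and DUR3. These are 9 of the 7036 entries in the files, and all 9 passed the filter on low counts. DAL3 is entered there as YIR032C and DUR1,2 as YBR208C. The members were chosen by pathway, with earlier results of these data known.

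Yeast can live on allantoin, a breakdown product of purines, by cutting it stepwise to urea and glyoxylate and then splitting urea to ammonia. These genes are a textbook case of nitrogen catabolite repression: while a good nitrogen source is present, the kinase complex TORC1 is active and the GATA activators Gln3 and Gat1 are kept from their targets. Rapamycin inhibits TORC1. Dal80 and Gzf3 are GATA repressors of the same sites, and Dal81 and Dal82 mediate induction by a pathway intermediate, allophanate.

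RNA-seq of total RNA came from strain BY4741 in 4 groups of 2 libraries: rph1 deletion with rapamycin, wild type with rapamycin, rph1 deletion untreated and wild type untreated. Rph1 is a demethylase of histone H3 with a JmjC domain that also represses transcription. FLAG-Rph1 ChIP, from samples labelled wild type, was used as the authors' 2 gene lists, rapamycin and untreated. The names of the deposited count tables mark the rapamycin libraries as 2 h and the untreated libraries as 0 h. No untreated library is marked 2 h, so an effect of rapamycin and a change over that time cannot be told apart. Below, a rise or fall with rapamycin compares the rapamycin libraries with the untreated ones. The sample labels give no dose and no time. The labels also do not say whether replicates were separate cultures or the deletion 1 clone, so the tests weigh differences against the spread of libraries that may be technical repeats.

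Total counts per library lay between 18037199 and 24769193. The deleted gene served as a check of the labels: RPH1 had 82 and 45 reads in rph1 deletion with rapamycin against 1695 and 2107 in wild type with rapamycin. Untreated, it had 30 and 43 reads in the deletion against 1057 and 1850 in wild type. Levels are CPM, the counts of a gene per 1000000 reads of the library's TMM-scaled total. A log2 fold change stands with its standard error and rests on 2 libraries in each group, from 1 edgeR quasi-likelihood fit to all 8 libraries, with p adjusted by Benjamini-Hochberg over 6169 genes and called under 0.05. A change in RNA per cell would not show on this scale, and comparisons that share a group of libraries are not independent of each other.

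Together the 9 genes were a small part of the RNA, and a far larger part with rapamycin. They took 0.160% and 0.164% of all reads in rph1 deletion with rapamycin, and 0.0124% and 0.0133% in untreated deletion. In wild type they took 0.144% and 0.167% with rapamycin, and 0.0136% and 0.0147% untreated.

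All 9 genes were called higher with rapamycin in wild type cells, where 34.8% of all genes tested were called higher. The rises ran from 1.32-fold for DCG1 to 28.6-fold for DAL3, with a median log2 fold change of 3.22 against 0.02 over all genes tested. Both rapamycin libraries lay above both untreated libraries for each of the 9, as they did for 42.6% of genes tested.

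The permeases bring the substrates in. DAL5, the permease for allantoate and ureidosuccinate (YJR152W; sacCer3, chromosome X, 719666 to 721297), had 359 and 423 CPM with rapamycin against 12.6 and 16.6 CPM untreated in wild type. It rose 26.6-fold, by 4.73 ± 0.18 (adjusted p = 9.82e-07). DUR3, the urea permease (YHL016C; chromosome VIII, 72037 to 74244), had 248 and 298 CPM with rapamycin against 9.75 and 11.5 CPM untreated, a rise of 25.6-fold (4.68 ± 0.16, adjusted p = 6.39e-07). These were the 27th and 29th largest increases among the 6169 genes.

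The allantoin permease DAL4 (YIR028W; chromosome IX, 408468 to 410375) moved far less than the other permeases. It had 17.6 and 19.1 CPM with rapamycin against 6.35 and 7.40 CPM untreated in wild type, and rose 2.66-fold (1.41 ± 0.14, adjusted p = 5.34e-05). The 95% interval of its log2 change, 1.08 to 1.74, does not reach those of DAL5 (4.32 to 5.14) or DUR3 (4.32 to 5.03).

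Among the 3 enzymes that take allantoin to urea, the size of the rise grew from the first step to the last. Allantoinase, DAL1 (YIR027C; chromosome IX, 406260 to 407642), opens the ring of allantoin. It had 10.6 and 11.8 CPM with rapamycin against 3.78 and 4.14 CPM untreated in wild type, a rise of 2.81-fold (1.49 ± 0.17, adjusted p = 0.000100). Allantoicase, DAL2 (YIR029W; chromosome IX, 410807 to 411838), acts next on allantoate and had 137 and 142 CPM with rapamycin against 14.8 and 13.6 CPM untreated. DAL2 rose 9.85-fold (3.30 ± 0.10, adjusted p = 6.39e-07).

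Ureidoglycolate lyase, DAL3 (YIR032C; chromosome IX, 415030 to 415617), releases glyoxylate and urea. Its levels were 109 and 115 CPM with rapamycin against 3.21 and 4.51 CPM untreated in wild type. The rise of 28.6-fold (4.84 ± 0.18, adjusted p = 8.77e-07) was the 21st largest of all genes tested. The 95% intervals of the log2 changes of DAL1 (1.11 to 1.88), DAL2 (3.07 to 3.53) and DAL3 (4.44 to 5.24) do not overlap.

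The products of that step have their own enzymes. DAL7 (YIR031C; chromosome IX, 413015 to 414679), a malate synthase that can use the glyoxylate, had 208 and 235 CPM with rapamycin against 22.3 and 25.2 CPM untreated in wild type, and rose 9.29-fold (3.22 ± 0.11, adjusted p = 6.88e-07). Urea amidolyase, DUR1,2 (YBR208C; chromosome II, 636703 to 642210), turns urea through allophanate into ammonia and carbon dioxide. Its reads were the most numerous of the 9 in untreated wild type, at 75.6 and 75.2 CPM, against 224 and 247 CPM with rapamycin in that strain. DUR1,2 rose 3.12-fold (1.64 ± 0.11, adjusted p = 7.77e-06).

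DCG1 (YIR030C; chromosome IX, 412036 to 412770) is a gene of unknown function within the same cluster. It had 12.2 and 11.9 CPM with rapamycin against 9.04 and 9.20 CPM untreated in wild type, and rose 1.32-fold (0.40 ± 0.13, adjusted p = 0.0217). Leaving out wild type rapamycin replicate 1 (adjusted p = 0.0722), wild type untreated replicate 1 (0.0690) or wild type untreated replicate 2 (0.0699) ended that call, as did a fit to only the 4 wild type libraries (0.0690).

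**Figure D1:**
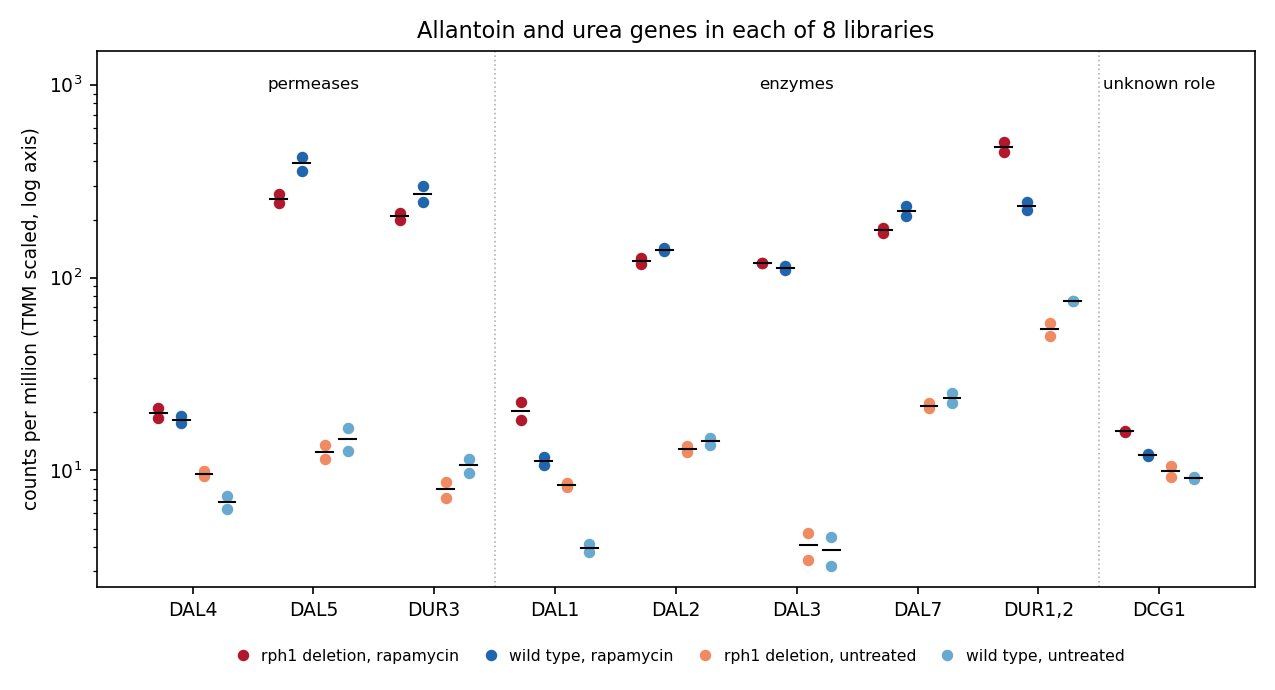
CPM (log axis) of each of the 9 genes in each of the 8 libraries; points are libraries and bars are the mean of the 2 libraries of a group. For all 9 genes the rapamycin libraries of a genotype lie above its untreated libraries, by a wide gap for DAL5, DUR3 and DAL3 and a narrow one for DCG1.

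In the rph1 deletion all 9 genes were again called higher with rapamycin, against 28.6% of all genes tested. The median log2 fold change was 3.14 against -0.01 over all genes tested, and the libraries did not overlap for any of the 9, as for 40.7% of genes tested in this direction.

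DAL5 had 243 and 270 CPM with rapamycin against 11.4 and 13.5 CPM untreated in the deletion, a rise of 20.6-fold (4.36 ± 0.18, adjusted p = 2.66e-06). DUR3 had 200 and 216 CPM against 7.23 and 8.77 CPM, and rose 26.0-fold (4.70 ± 0.16, adjusted p = 1.24e-06). DAL4 had 18.7 and 21.2 CPM against 9.95 and 9.32 CPM, a rise of 2.07-fold (1.05 ± 0.14, adjusted p = 0.000422). The allantoin permease DAL4 was the permease with the smallest change.

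DAL1 had 22.7 and 18.2 CPM with rapamycin against 8.59 and 8.16 CPM untreated in the deletion, a rise of 2.43-fold (1.28 ± 0.15, adjusted p = 0.000261). DAL2 had 127 and 117 CPM against 13.4 and 12.5 CPM, and rose 9.40-fold (3.23 ± 0.10, adjusted p = 8.94e-07). DAL3 had 119 CPM in both rapamycin libraries against 4.76 and 3.45 CPM, and rose 28.9-fold (4.85 ± 0.17, adjusted p = 1.82e-06). The 95% intervals of the log2 changes of DAL1 (0.93 to 1.63), DAL2 (3.01 to 3.46) and DAL3 (4.45 to 5.25) do not overlap in the deletion.

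DAL7 had 182 and 171 CPM with rapamycin against 22.4 and 21.0 CPM untreated in the deletion, and rose 8.12-fold (3.02 ± 0.11, adjusted p = 1.84e-06). DUR1,2 had 504 and 448 CPM against 49.7 and 58.0 CPM, a rise of 8.84-fold (3.14 ± 0.12, adjusted p = 2.42e-06). DCG1 had 16.1 and 15.8 CPM against 10.6 and 9.26 CPM, and rose 1.61-fold (0.68 ± 0.12, adjusted p = 0.00219). In the deletion the intervals of DUR1,2 (2.86 to 3.42), DAL2 and DAL7 (2.77 to 3.28) overlap.

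**Figure D2:**
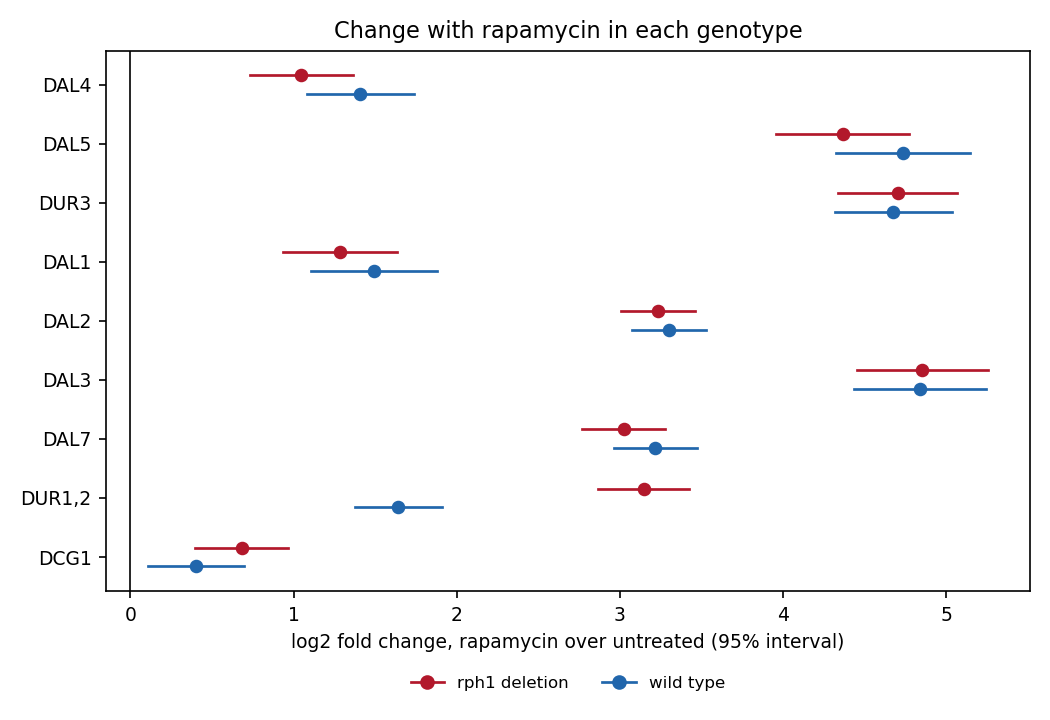
Log2 fold change of rapamycin over untreated for each gene, with its 95% interval, in rph1 deletion (upper point of each pair) and wild type (lower point); every point passed the test of rapamycin against untreated. DUR1,2 lies at 3.14 in the deletion and 1.64 in wild type, and DCG1 has the smallest change in both.

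DAL1, DAL4, DAL2, DCG1, DAL7 and DAL3 lie side by side on chromosome IX, from 406260 to 415617, a span of 9358 bases. DAL1 and DAL4 are divergent with 825 bases between them, DAL4 and DAL2 run in the same direction with 431 bases between them, and DAL2 and DCG1 are convergent with 197 bases between them. DCG1, DAL7 and DAL3 run in the same direction, with gaps of 244 and 350 bases. Change with rapamycin did not follow position in a simple order: in wild type DCG1, at 0.40, sits between DAL2, at 3.30, and DAL7, at 3.22.

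The genes that flank the cluster went the other way. YVH1, a protein phosphatase gene 292 bases from DAL1, fell with rapamycin in the deletion (-0.69 ± 0.12, adjusted p = 0.00212) and in wild type (-1.79 ± 0.13, adjusted p = 9.18e-06). MGA2, an activator of fatty acid desaturation 506 bases from DAL3, fell in the deletion (-0.40 ± 0.10, adjusted p = 0.0111) and in wild type (-0.93 ± 0.10, adjusted p = 0.000102). The log2 change of YVH1 in the deletion exceeded that in wild type by 1.09 ± 0.18 (edgeR adjusted p = 0.0109). For MGA2 this difference was 0.52 ± 0.15 and missed the threshold (edgeR adjusted p = 0.0519). Of the neighbours of the other members, FTH1, 159 bases from DUR1,2, rose by 0.52 ± 0.10 in the deletion and 0.33 ± 0.10 in wild type. PGU1, a pectin-degrading enzyme gene 1517 bases from DAL5, rose by 1.52 ± 0.10 in the deletion and 1.83 ± 0.10 in wild type. YHL017W, 162 bases from DUR3, fell in the deletion (-1.13 ± 0.12) and in wild type (-0.78 ± 0.12), and edgeR's adjusted p was at most 0.0144 for these 6 values. YBR209W, on the other side of DUR1,2, fell in the deletion (-2.19 ± 0.22) and in wild type (-1.59 ± 0.21). The small entries YHL015W-A next to DUR3 and YJR151W-A next to DAL5 did not pass the test in either. Whether counting used strand is not stated, so reads past the end of a convergent gene cannot be told apart from the neighbour's own.

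**Figure D3:**
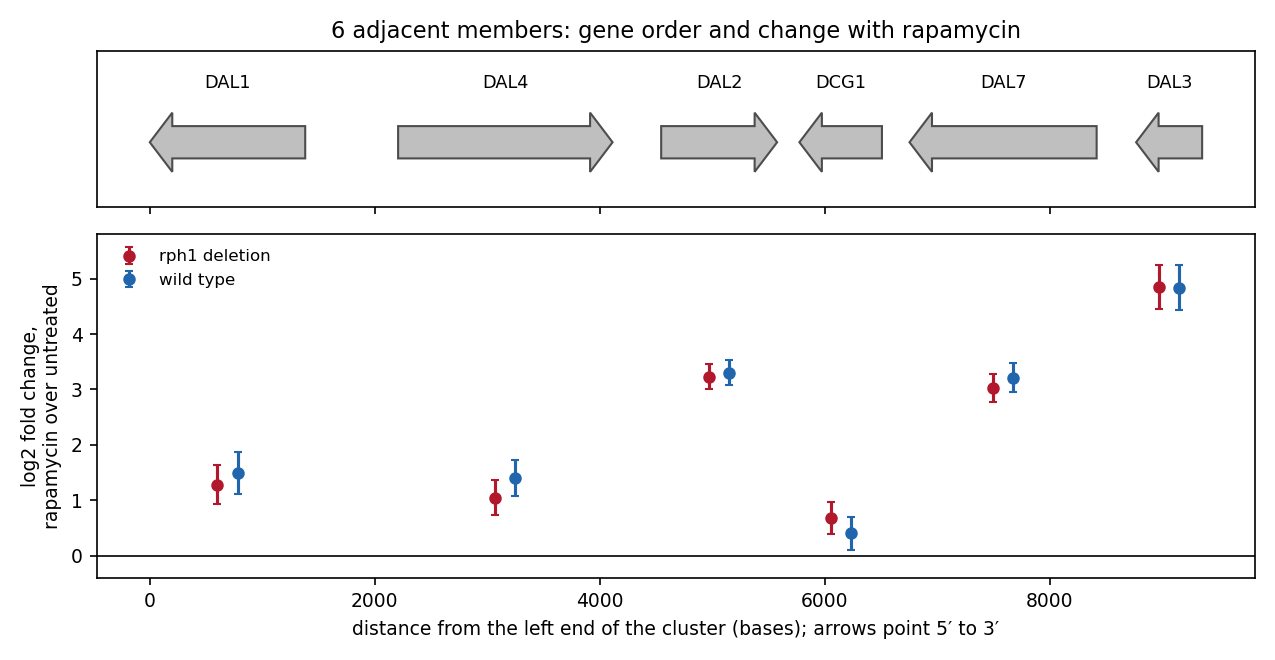
Upper panel, the 6 adjacent members drawn to scale against distance in bases from the left end of the cluster, with arrows in the direction of transcription; lower panel, log2 fold change of rapamycin over untreated with its 95% interval in rph1 deletion and wild type. DCG1 is lowest in both genotypes and DAL3, at the right end, highest.

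Per kilobase of gene, the members stood close together without the drug and far apart with it. In untreated deletion the mean levels ran from 3.62 ± 0.49 CPM per kilobase for DUR3 to 13.5 ± 1.27 for DCG1 (SD, n = 2), and in untreated wild type from 2.86 ± 0.18 for DAL1 to 14.3 ± 1.24 for DAL7. With rapamycin they ran from 10.4 ± 0.92 for DAL4 to 203 for DAL3 in the deletion, and from 8.10 ± 0.58 for DAL1 to 239 ± 27.9 for DAL5 in wild type.

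The order with rapamycin was DAL3, DAL5, DAL2, DAL7, DUR3, DUR1,2, DCG1, DAL1 and DAL4 in the deletion, where DUR3 (94.1) and DUR1,2 (86.4 CPM per kilobase) overlapped. In wild type with rapamycin it was DAL5, DAL3, DAL2, DAL7, DUR3, DUR1,2, DCG1, DAL4 and DAL1, where DAL2 (135) overlapped DAL7 (133), and DAL7 overlapped DUR3 (124 CPM per kilobase). DUR1,2, sixth in both orders, stood at 86.4 ± 7.21 CPM per kilobase in the deletion against 42.7 ± 2.97 in wild type. In untreated deletion the order was DCG1, DAL7, DAL2, DUR1,2, DAL5, DAL3, DAL1, DAL4 and DUR3; DCG1, DAL7 and DAL2 overlapped one another in turn, as did DAL5, DAL3 and DAL1. In untreated wild type it was DAL7, DAL2, DUR1,2, DCG1, DAL5, DAL3, DUR3, DAL4 and DAL1, and only DAL7, DAL2 and DUR1,2 overlapped in turn. DUR3 was last in untreated deletion, and with rapamycin its level per kilobase was above that of DCG1 in every library of both genotypes.

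In untreated cells 2 of the 9 genes were called for the deletion. DAL1 was higher and DUR1,2 lower, where 4.88% of all genes tested were called higher and 2.53% lower. The median log2 fold change of the 9 was -0.13, against -0.05 over all genes tested. Both deletion libraries lay above both wild type libraries for 3 members and below them for 3, where 22.6% and 30.3% of genes tested did so.

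DAL1 had 8.59 and 8.16 CPM in untreated deletion against 3.78 and 4.14 CPM in untreated wild type, and was 2.11-fold higher (1.07 ± 0.17, adjusted p = 0.0128). Both deletion libraries lay above both wild type libraries, on 177 and 149 reads against 59 and 90. It missed the threshold when deletion untreated replicate 1 was left out (1.04, adjusted p = 0.0901) and in a fit to only the 4 untreated libraries (1.12, adjusted p = 0.0741).

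DUR1,2 had 49.7 and 58.0 CPM in untreated deletion against 75.6 and 75.2 CPM in untreated wild type, 1.40-fold lower (-0.49 ± 0.11, adjusted p = 0.0430). This call was at the threshold. It was lost when any 1 of the 8 libraries was left out, with adjusted p from 0.0783 without wild type rapamycin replicate 2 to 0.281 without deletion untreated replicate 1 and log2 fold changes from -0.60 to -0.38. It was also lost with TMM scaling without ribosomal protein genes (adjusted p = 0.0528) and with only the 4 untreated libraries (0.146).

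The other members had log2 fold changes from -0.42 to 0.48 in untreated deletion. DAL4 had 0.48 ± 0.15 (95% interval 0.14 to 0.82, adjusted p = 0.0895) and DUR3 -0.42 ± 0.15 (-0.78 to -0.06, adjusted p = 0.150), and for both the deletion and wild type libraries did not overlap. DAL2 (-0.36 to 0.10), DAL3 (-0.39 to 0.54), DAL5 (-0.63 to 0.15), DAL7 (-0.38 to 0.11) and DCG1 (-0.18 to 0.42) had 95% intervals that include 0. DAL3 had the fewest reads, 98 and 63 in untreated deletion against 50 and 98 in untreated wild type, and the widest of these intervals.

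With rapamycin, 5 of the 9 genes were called for the deletion. DUR1,2, DAL1 and DCG1 were higher and DAL5 and DAL7 lower, against 14.4% of all genes tested called higher and 13.5% lower. The median log2 fold change of the 9 was 0.09, against 0.00 over all genes tested. The deletion libraries lay wholly above those of wild type for 4 members and wholly below for 4, as for 34.4% and 34.3% of genes tested. The calls of DUR1,2 and DAL1 held in every alternative, and those of DCG1, DAL5 and DAL7 each depended on single libraries.

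DUR1,2 had 504 and 448 CPM in deletion with rapamycin against 224 and 247 CPM in wild type with rapamycin. It was 2.02-fold higher (1.02 ± 0.11, adjusted p = 0.00129), and each deletion library had more of it than either wild type library. The call stood in all 14 alternative settings, with log2 fold changes from 0.96 to 1.13.

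DAL1 had 22.7 and 18.2 CPM in deletion with rapamycin against 10.6 and 11.8 CPM in wild type, 1.82-fold higher (0.87 ± 0.15, adjusted p = 0.00488). This call too stood in all 14 alternatives (0.73 to 1.05). DAL4, which shares the intergenic stretch with DAL1, had 18.7 and 21.2 CPM against 17.6 and 19.1 CPM (0.12 ± 0.13, 95% interval -0.18 to 0.42, adjusted p = 0.534), and its groups overlapped. YVH1, on the other side of DAL1, was also higher in deletion with rapamycin than in wild type (0.88 ± 0.13, edgeR adjusted p = 0.00269). So was MGA2, at the other end of the cluster (0.68 ± 0.10, edgeR adjusted p = 0.00326). Within a library, where scaling cancels, the ratio of DAL1 to DAL4 reads was 1.21 and 0.860 in the deletion against 0.604 and 0.616 in wild type with rapamycin. Untreated, that ratio was 0.863 and 0.876 in the deletion against 0.596 and 0.559 in wild type.

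DAL5 had 243 and 270 CPM in deletion with rapamycin against 359 and 423 CPM in wild type, 1.52-fold lower (-0.61 ± 0.15, adjusted p = 0.0199). It did not pass when deletion rapamycin replicate 1 (-0.50, adjusted p = 0.139), deletion rapamycin replicate 2 (-0.66, 0.0619) or wild type rapamycin replicate 2 (-0.47, 0.110) was left out. DUR3, the other permease of that size of response, had 200 and 216 CPM against 248 and 298 CPM (-0.39 ± 0.13, adjusted p = 0.0545). DUR3 missed the threshold here and passed it in 5 of the 14 alternatives, whose values stand in the closing section.

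The calls of DAL7 and DCG1 were near the threshold. DAL7 had 182 and 171 CPM in deletion with rapamycin against 208 and 235 CPM in wild type, 1.25-fold lower (-0.33 ± 0.10, adjusted p = 0.0422), and DCG1 had 16.1 and 15.8 CPM against 12.2 and 11.9 CPM, 1.32-fold higher (0.40 ± 0.12, adjusted p = 0.0415). Both calls were lost without any 1 of the 4 rapamycin libraries or either untreated deletion library, with adjusted p from 0.0607 (without wild type rapamycin replicate 1) to 0.215 (without deletion rapamycin replicate 2) for DAL7 and from 0.0591 (without deletion untreated replicate 1) to 0.148 (without deletion rapamycin replicate 1) for DCG1. The call of DAL7 was also lost with TMM scaling without ribosomal protein genes (-0.27, adjusted p = 0.0724) and that of DCG1 with only the 4 rapamycin libraries (0.0505). With that scaling 61.9% of the genes called in this comparison were higher, against 51.7% in the fit reported here. DAL2 (-0.19 ± 0.09, 95% interval -0.39 to 0.01) and DAL3 (0.09 ± 0.14, -0.23 to 0.40) did not pass the test.

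**Figure D4:**
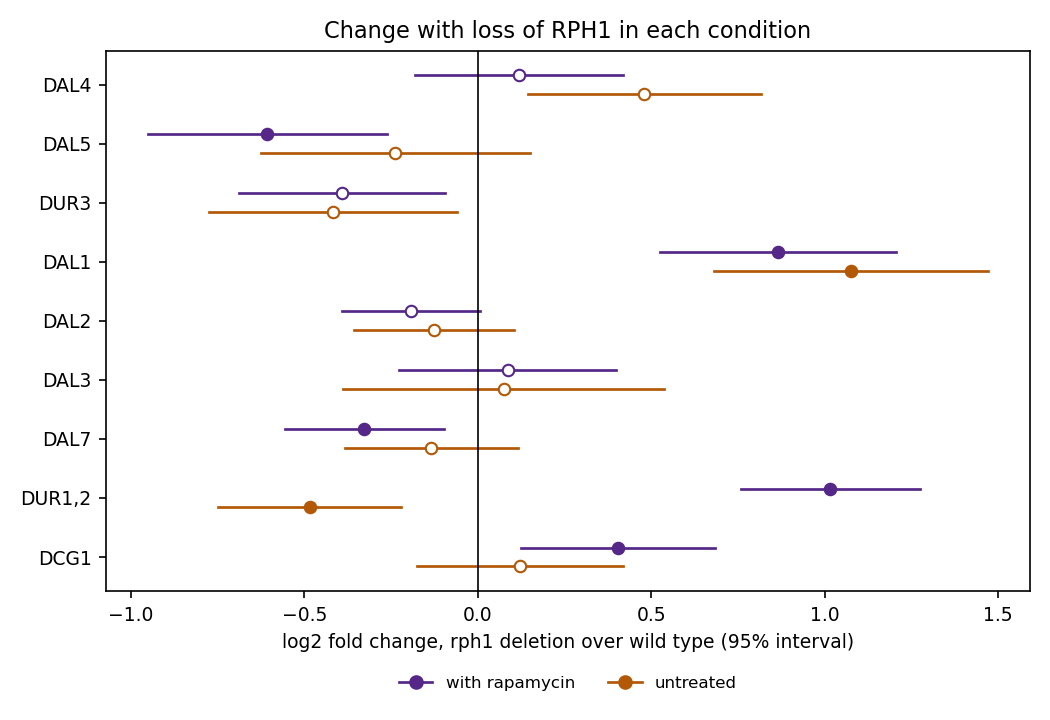
Log2 fold change of rph1 deletion over wild type for each gene, with its 95% interval, with rapamycin (upper point of each pair) and untreated (lower point); filled points passed the test. DUR1,2 lies at 1.02 with rapamycin and -0.49 untreated, while DAL1 lies right of 0 in both conditions.

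The test of whether the rapamycin change differed between genotypes called 1 of the 9, DUR1,2, where 13.1% of all genes tested were called. Its log2 change in the deletion exceeded that in wild type by 1.50 ± 0.16 (95% interval 1.13 to 1.87, adjusted p = 0.00622), a factor of 2.83. The value lay between 1.39 and 1.62 when each library was left out in turn, with adjusted p at most 0.0360 in any alternative.

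Each of the other 8 missed the threshold, which does not show that they responded alike in the deletion and in wild type. The 95% intervals of the difference were -0.73 to 0.31 for DAL1, -0.37 to 0.24 for DAL2, -0.55 to 0.58 for DAL3 and -0.81 to 0.09 for DAL4. They were -0.89 to 0.15 for DAL5, -0.53 to 0.14 for DAL7, -0.13 to 0.69 for DCG1 and -0.43 to 0.48 for DUR3. DUR1,2, whose interval begins at 1.13, lies outside all 8.

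The same contrast showed in the make-up of the members' own reads, which no scaling touches. DUR1,2 gave 35.2% and 32.1% of the reads of the 9 genes in deletion with rapamycin against 16.9% and 16.4% in wild type with rapamycin. Untreated, it gave 36.0% and 40.3% in the deletion against 48.0% and 44.9% in wild type. DAL5 gave 17.0% and 19.4% in deletion with rapamycin against 27.1% and 28.1% in wild type, so that it, and not DUR1,2, gave the most reads there. Shares of reads also depend on gene length, and DUR1,2 is the longest of the 9, at 5508 bases.

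Set against the urea permease, DUR1,2 had 2.53 and 2.08 reads per read of DUR3 in deletion with rapamycin, against 0.903 and 0.829 in wild type with rapamycin. Untreated, the ratios were 6.87 and 6.62 in the deletion against 7.75 and 6.54 in wild type, and these overlap. Set against the allantoicase gene DAL2, DUR1,2 had 3.97 and 3.83 reads per read in deletion with rapamycin, against 1.63 and 1.74 in wild type with rapamycin. Untreated, that ratio was 3.70 and 4.64 in the deletion against 5.10 and 5.54 in wild type, and these do not overlap.

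**Figure D5:**
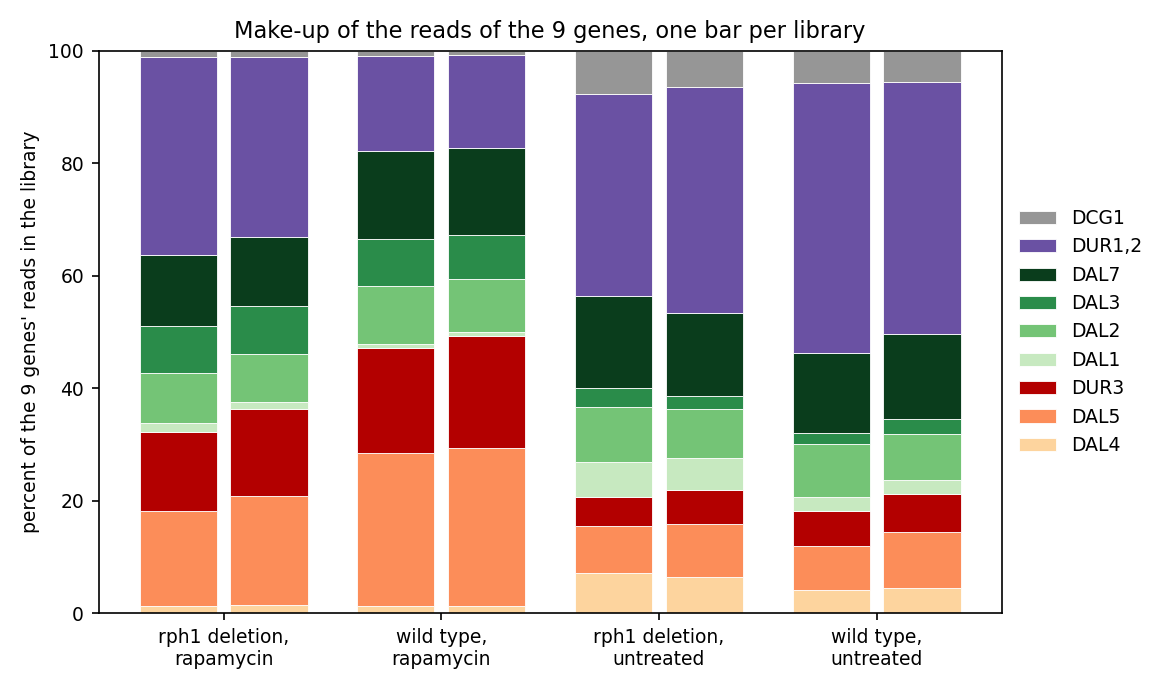
Percent of the reads of the 9 genes that each gene gave, 1 stacked bar per library, with the groups ordered as rph1 deletion and wild type with rapamycin, then rph1 deletion and wild type untreated. The DUR1,2 band is 35.2% and 32.1% in deletion with rapamycin against 16.9% and 16.4% in wild type with rapamycin.

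Of the 7 regulators of these genes, 5 were called higher with rapamycin in each genotype, not all of them the same. Of all genes tested, 28.6% were called higher in the deletion and 34.8% in wild type. DAL80 had 674 and 711 reads with rapamycin against 2 and 4 untreated in the deletion, and 459 and 441 against 2 and 5 in wild type. GAT1 rose in the deletion (1.31 ± 0.16, adjusted p = 0.000349) and in wild type (1.04 ± 0.17, adjusted p = 0.000778), and GLN3 rose by 0.39 ± 0.10 in the deletion and 0.59 ± 0.10 in wild type. DAL82, which binds upstream of inducible members, rose by 0.68 ± 0.13 in the deletion and 0.79 ± 0.13 in wild type. URE2, the cytoplasmic inhibitor of Gln3, had 0.20 ± 0.08 in the deletion (adjusted p = 0.0731) and rose by 0.40 ± 0.08 in wild type. GZF3 rose in the deletion (0.65 ± 0.13) and had 0.22 ± 0.13 in wild type (adjusted p = 0.165), and DAL81 had -0.20 ± 0.16 in the deletion (adjusted p = 0.334) and fell in wild type (-0.52 ± 0.17, adjusted p = 0.0215). For a difference between genotypes in this response, edgeR's adjusted p of the 7 ran from 0.166 for GZF3 to 0.732 for DAL82.

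With rapamycin, the deletion had more DAL80 (0.51 ± 0.13, adjusted p = 0.0250), GAT1 (0.55 ± 0.16, adjusted p = 0.0373) and GZF3 (0.43 ± 0.13, adjusted p = 0.0418) than wild type. It had less GLN3 (-0.41 ± 0.10, adjusted p = 0.0187) and URE2 (-0.29 ± 0.08, adjusted p = 0.0330). DAL82 (-0.12 ± 0.13) and DAL81 (0.14 ± 0.17) did not pass the test. The activator transcripts GAT1 and GLN3 thus lay on opposite sides in this fit. Of the 7 regulators, 3 were called higher and 2 lower, where 14.4% and 13.5% of all genes tested were. How far these regulator calls depend on single libraries is not given here. In untreated deletion edgeR's adjusted p of the 7 ran from 0.243 for GLN3 to 0.994 for GZF3.

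Of 26 other genes of nitrogen catabolite repression, 25 were tested and the asparaginase entry ASP3-1 had no reads. With rapamycin 23 rose and 2 did not pass the test in the deletion (median 1.90, where 28.6% of all genes tested rose). In wild type 22 rose and 3 did not pass (median 2.52, where 34.8% rose). Of the 25, the deletion with rapamycin had 2 higher and 7 lower than wild type with rapamycin, against 14.4% and 13.5% of all genes tested. For the difference between genotypes in the rapamycin change 1 was called higher, 8 were called lower and 16 were not called, where 13.1% of all genes tested were called in either direction. GABA transaminase UGA1 (-1.86 ± 0.24), succinate semialdehyde dehydrogenase UGA2 (-2.53 ± 0.25), the GABA permease UGA4 (-1.55 ± 0.17) and the amidase gene AMD2 (-1.33 ± 0.15) were among the 8 (adjusted p from 0.00622 to 0.00771). The glutamate dehydrogenases GDH2 (-0.22 ± 0.15) and GDH3 (0.26 ± 0.16) did not pass this test.

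Close relatives of members were followed since similar sequences can share reads. The malate synthase MLS1, the relative of DAL7, rose with rapamycin in the deletion (2.54 ± 0.12, adjusted p = 5.14e-06) and in wild type (3.36 ± 0.13, adjusted p = 9.82e-07). Its rise differed between genotypes (-0.82 ± 0.17, adjusted p = 0.0220), while DAL7 had -0.19 ± 0.15. The uracil permease FUR4, a relative of DAL4, fell in the deletion (-0.72 ± 0.27, adjusted p = 0.0498) and in wild type (-0.87 ± 0.27, adjusted p = 0.0209), and the uridine permease FUI1 did not pass the test in either. How the counting treated reads that match more than 1 gene is not stated. The values of DAL7, DAL4 and these relatives are therefore less certain than the rest.

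In the authors' deposited table of FLAG-Rph1 ChIP, 1 of the 9 members was listed with rapamycin and none untreated. That member was DAL5, with a fold enrichment of 22.2 in the rapamycin list, where 400 of the 705 listed genes had a higher value and the median was 25.3. The rapamycin list held 9.79% of all entries of the count files and the untreated list 6.61%. Fold enrichments are the authors' own, with no replicate values, and the positions listed are those of genes, with none for peaks.

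DUR1,2 and DAL1, the members with the largest differences in the deletion, were in neither list, and neither were their nearest neighbours FTH1, YBR209W and YVH1. The listed gene nearest to the chromosome IX cluster was LYS1 with rapamycin, 3998 bases away (fold enrichment 45.0 in the authors' deposited table), and RPL2B untreated, 88328 bases away. Of the 26 other nitrogen catabolite repression genes, the authors' deposited table listed 13 with rapamycin and 1 untreated. Of the 7 regulators the authors' deposited table listed 2 with rapamycin, GLN3 (13.3) and URE2 (21.0), and none untreated. Of all entries of the count files, 9.79% were listed with rapamycin and 6.61% untreated. Why a gene is absent from a list is not known, since the authors' threshold is not stated and the lists give no peak positions. The lists do not show that Rph1 was absent there.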

How the data were processed

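RNA-seq was available for 8 libraries in 4 groups of 2, and FLAG-Rph1 ChIP as 2 gene lists. The deposited RNA values are raw read counts per gene, and the deposited ChIP lists hold 1 fold enrichment (a ratio) for each gene, so named in their headers, with no control stated. The submitters' processing notes name sacCer3 and the tools Bowtie2 2.3.4.3, MACS2 2.2.1, STAR 2.5.3a, DESeq2 1.24.0, featureCounts 1.6.3 and Trimmomatic 0.38. Which tool did what, the annotation, and whether strand was used are not given in the sources used here. Depth was 18037199 to 24769193 counts per library; intervals for levels are not given, since 2 libraries set the spread.

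Names, positions and lengths came from RefSeq's gene table of assembly R64, which matched 5956 of 7036 entries. LAP4 was found there as APE1. Counts were fitted with edgeR 4.0.16 in R 4.3.3 (limma 3.58.1): filterByExpr with a minimum count of 10, TMM scaling, 1 mean per group, glmQLFit and glmQLFTest, two-sided. Standard errors and 95% intervals come from the F statistic. Alternatives were DESeq2 1.42.0, its size factors, TMM without ribosomal protein genes, no filter, only the groups compared, a replicate term and each library left out; their effects are given in the closing section.

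The 9 members, all named in every comparison, and the gene lists were chosen with earlier results of these data known. Of the other lists, all 7 regulators, the 6 other nitrogen catabolite repression genes with the smallest p for rapamycin in wild type, all 3 relatives, the nearest genes and the 5 genes most alike in pattern were named. Promoter and protein sequences and the RNA polymerase II ChIP were not analysed here.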

Additional observations from a re-analysis of the deposited data

Results flagged for a closer look

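DUR1,2 was the member whose rapamycin change differed between genotypes by the test of that difference: the log2 change in rph1 deletion exceeded that in wild type by 1.50 (edgeR adjusted p = 0.00622). Both deletion libraries with rapamycin, at 504 and 448 CPM, lay above both wild type libraries with rapamycin, at 224 and 247 CPM, while both untreated deletion libraries, at 49.7 and 58.0 CPM, lay below both untreated wild type libraries, at 75.6 and 75.2 CPM. Its nearest neighbours on chromosome II, FTH1 (0.18 ± 0.14, adjusted p = 0.420) and YBR209W (-0.60 ± 0.31, adjusted p = 0.246), did not pass this test. The call of DUR1,2 as lower in untreated deletion was lost in 10 of 14 alternatives. The cause of the difference in its rapamycin change was not tested.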

How the results depend on the processing

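Of the members' values, all kept their direction under DESeq2, DESeq2 size factors, TMM without ribosomal protein genes, no filter, the replicate block and only the groups compared. Leaving out 1 library reversed DAL3 in untreated deletion (-0.18 without deletion untreated replicate 1, -0.13 without wild type untreated replicate 1; range -0.18 to 0.36). It also reversed the difference between genotypes in the rapamycin change for DAL3 (-0.28, -0.19 and -0.02; range -0.28 to 0.27) and DUR3 (-0.11, -0.10, -0.10 and -0.04; range -0.11 to 0.17), none of them called. Members called for the deletion untreated were 2, but 1 with TMM without ribosomal protein genes, 4 with the replicate block, 0 with only the groups compared and 0 to 1 without 1 library; for the deletion with rapamycin they were 5, and 2 to 6 without 1 library. With rapamycin against untreated they were 9 in the deletion and 9 in wild type, and without 1 library 9 in the deletion and 8 to 9 in wild type, and for the difference between genotypes 1 throughout.

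Over all genes, the untreated deletion had 457 calls, 703 with DESeq2, 1102 with the replicate block, 14 with only the groups compared and 54 (without deletion untreated replicate 1) to 498 without 1 library. The deletion with rapamycin had 1725, and 647 (without deletion rapamycin replicate 1) to 1994 without 1 library. The difference between genotypes had 809, 1648 with the replicate block, and 96 (without deletion rapamycin replicate 1) to 1020 without 1 library. These 3 totals moved by over 1.5 times without any 1 of the 4 deletion libraries or wild type untreated replicate 2 (457), without any 1 rapamycin library (1725), and without any library but wild type rapamycin replicate 1 and wild type untreated replicate 1 (809). Where a group is left with 1 library, that library is assumed to vary like the others. The percentages of genes called that stand beside the members' counts move with these totals.

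The labels do not say that equal replicate numbers share a culture or day. The replicate 1 minus replicate 2 differences of the groups correlated over 6169 genes by 0.19 to 0.56. With the replicate block DAL4 (0.49, adjusted p = 0.0426) and DUR3 (-0.41, 0.0263) passed the test in untreated deletion and DUR3 with rapamycin (-0.39, 0.00424). DUR3 with rapamycin also passed with DESeq2 (adjusted p = 0.0434), with only the 4 rapamycin libraries (0.0388), and without wild type untreated replicate 1 (0.0398) or replicate 2 (0.0392). In the rapamycin ChIP list, 0 members remained at or above the list's median fold enrichment, and matching by position changed no count. Depth limits DAL1 and DAL3 most, at 50 to 177 reads in untreated libraries.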

Other observations

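Among the 5304 other genes that averaged 10 CPM or more, the 5 whose log2 CPM over the 8 libraries were most like the mean of the members were ARG80 (Pearson r = 0.9987), MEP2 (0.9983), ALT1 (0.998), GAP1 (0.998) and DAL80 (0.9973). The libraries fall into rapamycin and untreated, so these correlations mostly reflect that difference and are given as a description. ARG80, a regulator of arginine metabolism, rose by 1.02 in the deletion and 1.02 in wild type on the log2 scale. The ammonium permease MEP2 rose by 6.16 in the deletion and 5.84 in wild type, the alanine transaminase ALT1 by 2.82 in the deletion and 2.62 in wild type, and the general amino acid permease GAP1 by 5.94 in the deletion and 5.70 in wild type. By Spearman correlation none of the 5 was among the 6 highest. Each member was also set against the mean of the other 8: r was lowest for DAL1 (0.807) and DCG1 (0.874) and 0.942 for DUR1,2, and 0.956 to 0.998 for the other 6.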
